A study of Mus musculus with 2 samples.

Results

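The p53 target genes are genes that the transcription factor p53 is known to switch on. A list of 31 names was matched exactly to the gene symbols of the deposited count table, and 29 of its 21983 entries carried one of these names. Ptprv and Tap53 had no entry, and the name Tap53 could not be placed. The rule is a match of names and uses no measured value, although the list was chosen with earlier results of these data known.

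RNA came from 14837 cells, a line of pancreatic ductal adenocarcinoma (PDAC) from C57BL/6 mice, after 48 h in conditioned medium, which is medium that other cells have grown in. Either cancer-associated fibroblasts (CAFs), cells of the tumour's connective tissue, or further 14837 cells had conditioned it, with 1 library for each. The table had 2 value columns, of which 1 could be tied to the CAF-medium library by its name. The header of the second fitted neither library, so it was set aside and no difference between media was computed. How the line and the fibroblasts were derived is not given in the sources used here.

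In a resting cell p53 is made and destroyed continuously, because the ubiquitin ligase MDM2 binds it and marks it for the proteasome. DNA damage, oncogene activity and failures of ribosome assembly loosen this grip, and p53 then binds paired decamer sites in DNA and raises the transcription of genes for arrest, repair and death. Mdm2 is itself a target, which closes a feedback loop. Many p53 targets also answer to other transcription factors, so their RNA level does not measure p53 activity.

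The CAF-medium library held 21269197 counts, and 11569 entries had at least 10 counts. Values are counts per 1000000 counts (CPM), and genes are ordered by CPM per kilobase of annotated exon, since long transcripts collect more counts. Ratios in plain counts stand beside those per kilobase where they differ most. On that scale the median gene with at least 10 counts stood at 8.14. A single library gives no replicate error, and no test was made. Ranges in parentheses are exact 95% intervals and cover counting error only. Markers of pancreatic duct epithelium were only partly high in this ductal adenocarcinoma line. The keratins Krt18, Krt8, Krt7 and Krt19 had 38699, 16944, 11703 and 8898 counts. E-cadherin, Cdh1, had 7869 and Muc1 had 1282. The duct gene Sox9, with 365 counts, stood at 4.15 CPM per kilobase, below the median gene. The epithelial genes Epcam and Cldn4 had 2 and 0 counts. Of 10 fibroblast markers, 5 were listed at 0, among them Col1a2, Col3a1, Dcn and Lum, and Pdgfra held 727 of the 787 counts of that list. Endothelial markers summed to 5 counts and immune markers to 123, of which 121 belonged to Cd68. Genes of basic metabolism such as Atp5a1 and Uqcrc1 were also listed at 0. A marker at or near 0 is therefore not read as absent, and the purity of the cells was not tested.

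The p53 target genes were spread widely around the level of the median gene. The highest were the ribosomal protein paralog Rps27l, the cell cycle inhibitor Cdkn1a and the death genes Perp and Pmaip1. DNA repair and metabolic members, 4 genes each, were lowest as groups. Of the 29 genes, 28 had at least 10 counts, against 52.6% of all entries, and Trp53i11 was listed at 0. Per kilobase, 15 of 29 exceeded the median gene, against 26.3% of all entries. Among entries with at least 10 counts the share above the median is 50.0% by construction, so the 15 genes are close to what the median itself sets. The 28 genes had a median of 8.23 CPM per kilobase, beside 8.14 for all genes at that depth, and ran from 0.774 to 147, a 189-fold span. Together the 29 genes took 30155 counts, or 0.142% of the library.

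Most neighbours in this order had overlapping intervals. For 12 genes the whole interval lay above the median gene, for 6 the interval contained it, and for 10 it lay below. Nearest to the median were Polk at 8.17 CPM per kilobase and Ccng1 at 7.99. In the order of the 28 genes, 19 of 27 neighbouring pairs had overlapping intervals. Rps27l and Cdkn1a, and Ei24 and Bbc3, were among the 8 pairs with separate intervals. An overlap does not by itself show that counting error covers the gap, and ratios of neighbours were not computed.

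**Figure D1:**
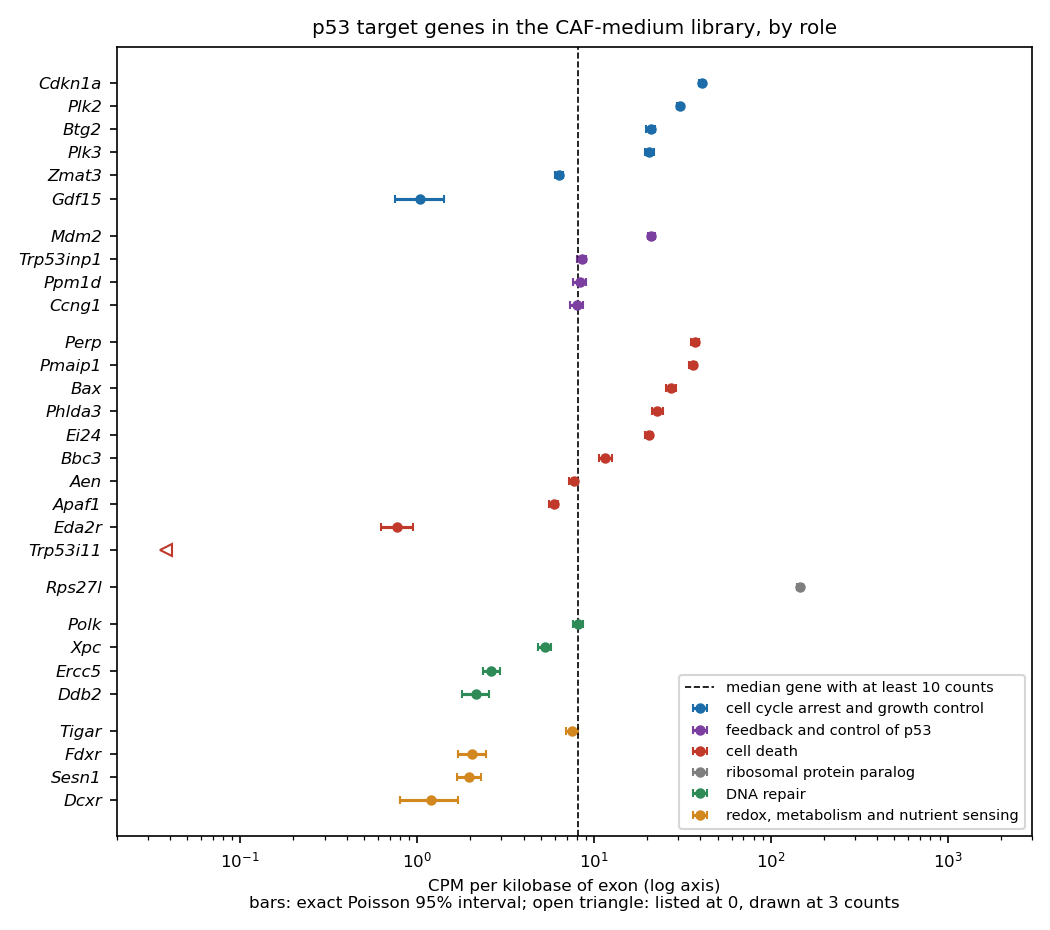
CPM per kilobase of exon (log axis) of the 29 p53 target genes in the CAF-medium library, grouped and coloured by role, with exact Poisson 95% intervals and a dashed line at the median gene. Rps27l at 147 stands apart on the right, repair and metabolic genes lie at or left of the line, and Trp53i11, listed at 0, is drawn as an open triangle at 3 counts.

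To show the DNA that p53 can recognise beside the genes, promoter windows from RefSeq (build GRCm38.p6, 250 bases before to 50 after each start) were searched for the p53 decamer. This p53 consensus half-site reads the same on both strands, and a full p53 site is a pair of such decamers. The table held 31 windows for 23 of the listed genes. Trp53inp1, Zmat3, Pmaip1, Perp, Ddb2, Xpc, Ptprv and Tap53 had none. Adjoining decamers with no mismatch occurred in 0 of the 31 windows, against 0.00913% of all 32851 windows. With 1 mismatch allowed, Cdkn1a, Ccng1 and Rps27l had such a pair, each in 1 window. That was 3 of 31 windows against 0.0883% of all windows, and 3 of 23 genes against 0.107% of all genes in the RefSeq table. With a gap of up to 13 bases as well, Bax and Polk joined them, making 5 of 31 windows against 1.09% of all windows, and 5 of 23 genes against 1.24% of all genes. These sites are shown because they are the closest to the consensus among the windows searched. Capitals mark the bases that match the consensus, and lower case inside a pair marks a mismatch or the gap.
Cdkn1a (chr17:29090913-29090962, plus strand): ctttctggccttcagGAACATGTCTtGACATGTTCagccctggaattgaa
Ccng1 (chr11:40755447-40755496, minus strand): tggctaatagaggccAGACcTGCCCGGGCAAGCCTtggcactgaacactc
Rps27l (chr9:66946281-66946330, plus strand): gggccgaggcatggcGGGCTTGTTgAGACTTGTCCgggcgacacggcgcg
Bax (chr7:45467075-45467125, minus strand): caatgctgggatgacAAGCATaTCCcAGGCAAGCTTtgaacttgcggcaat
Polk (chr13:96519383-96519433, minus strand): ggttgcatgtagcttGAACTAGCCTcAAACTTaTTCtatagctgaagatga

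The Cdkn1a pair lay 51 to 32 bases before the more upstream of the gene's 2 starts in the table, and the window at its other start had no decamer. A further decamer without mismatch lay 12 bases before this pair, which made Cdkn1a the 1 listed gene with 2 perfect decamers within the permitted gap, or 1 of 31 windows against 0.0731% of all windows. That stretch is shown for the spacing of the perfect decamers.
Cdkn1a (chr17:29090891-29090952, plus strand): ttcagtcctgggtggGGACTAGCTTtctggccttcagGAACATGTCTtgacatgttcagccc
The Ccng1 pair lay 195 to 176 bases before the start, and the Rps27l pair 117 to 98 bases before the second of its starts. At least 1 perfect decamer was found in 11 of 31 windows, against 8.36% of all windows. By gene that was 10 of 23 against 9.55%, and those beyond the 5 above were Aen, Ei24, Mdm2, Ppm1d and Sesn1. The Mdm2 decamer is shown since Mdm2 is the feedback gene, and it lay 186 to 177 bases before the start. It is a single decamer in the 1 window of Mdm2, and the rest of the gene was not searched. Whether p53 acts on Mdm2 through this decamer or through sites elsewhere was not tested.
Mdm2 (chr10:117710920-117710959, minus strand): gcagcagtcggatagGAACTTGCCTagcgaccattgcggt
Genes with a pair within 1 mismatch were found from the top to the middle of the expression order, with Rps27l at 147 CPM per kilobase and Ccng1 at 7.99. A match is a description of the letters and not evidence of binding. With or without a match, a gene can have p53 sites outside the window searched.

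**Figure D2:**
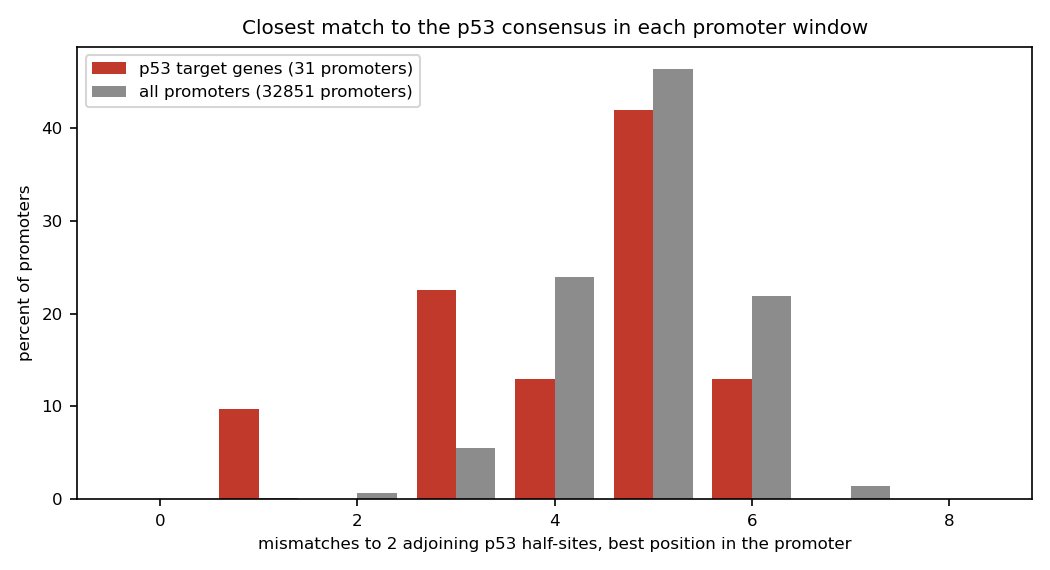
Percent of promoter windows (vertical axis) by the number of mismatches between their best stretch and 2 adjoining p53 decamers (horizontal axis), for 31 windows of p53 target genes and all 32851 windows. Of the 31 windows, 3 lay at 1 mismatch, 9.68%, while 0.0791% of all windows did, and 5 mismatches was the commonest value in both.

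Genes of arrest and growth control were led by Cdkn1a, which encodes p21, the inhibitor of cyclin-dependent kinases through which p53 halts the cell cycle. Cdkn1a (chromosome 17, 29090976 to 29100727, plus strand, mm10) had 3078 counts, or 145 CPM (140 to 150), and 40.7 CPM per kilobase. That placed it at percentile 88.4 of the genes with at least 10 counts. Its relative Cdkn1b, which encodes p27, stood at 22.6 CPM per kilobase, so Cdkn1a was 1.8 times as high per kilobase (1.7 to 1.9). Using the longest transcript of each gene as the length, the ratio was 3.07, and it was 1.41 in plain counts.

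The polo-like kinase Plk2 stood at 30.5 CPM per kilobase (29.4 to 31.6) from 2913 counts. Its paralog Plk3 stood at 20.6 (19.4 to 21.8) from 1107 counts. Plk2 was thus 1.48 times as high per kilobase of all exons (1.38 to 1.59), 2.36 times with the longest transcripts as lengths and 2.63 times in counts. The antiproliferative gene Btg2 stood at 20.9 CPM per kilobase (19.8 to 22.2), below its paralog Btg1, which was 5.8 times as high (5.47 to 6.15) and 11.2 times in counts. Zmat3, which encodes an RNA-binding zinc finger protein, reached 72.7 CPM but only 6.36 per kilobase, because its exons cover 11435 bases. Gdf15, a secreted cytokine of the TGF-beta superfamily that many stresses induce, had 41 counts, or 1.04 CPM per kilobase (0.747 to 1.41). Of the 6 genes of this group with an entry, 4 exceeded the median gene per kilobase and 5 in plain CPM, with Zmat3 the 1 that changed sides. On either scale 26.3% of all entries exceeded it, and 50.0% of those with at least 10 counts by construction.

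Genes that act back on p53 were led by Mdm2, with the others at the level of the median gene. Mdm2 (chromosome 10, 117688875 to 117710758, minus strand, mm10) had 2284 counts, or 107 CPM (103 to 112), and 21.1 CPM per kilobase. Trp53inp1, which encodes a stress protein that aids p53 phosphorylation, stood at 8.55 CPM per kilobase (8.07 to 9.05). Ppm1d, the phosphatase WIP1 that removes activating phosphates from p53, stood at 8.3 (7.62 to 9.01). Cyclin G1, Ccng1, which helps a phosphatase act on MDM2, stood at 7.99 (7.36 to 8.66). The intervals of these 3 genes overlapped and each contained the median gene.

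Paralogs outside the list separated these genes further. Mdm4, the MDM2 relative that blocks p53 without degrading it, had 4260 counts, 1.87 times those of Mdm2 (1.77 to 1.96). Per kilobase the order turned, and Mdm2 was 1.56 times as high (1.48 to 1.64), or 1.21 times with the longest transcripts as lengths. Of the transcript windows of Mdm4, 9.98% were also found in other genes, so some of its counts could belong elsewhere. Ccng2 was 4.83 times as high per kilobase as Ccng1 (4.44 to 5.27) and 7.51 times in counts. Trp53inp1 was 5.56 times as high per kilobase as Trp53inp2 (4.73 to 6.56), and Mdm2 was 2.55 times as high as Ppm1d (2.32 to 2.8), or 4.08 times in counts.

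The cell death genes ranged from among the highest of the list to the 1 gene listed at 0. Perp, a membrane protein of desmosomes that also takes part in p53-dependent death, stood at 37.4 CPM per kilobase (35.6 to 39.3). Pmaip1, which encodes the BH3-only protein NOXA, stood at 36.2 (34.6 to 37.8), and the intervals of these genes overlapped. Bax, the pore-forming effector of mitochondrial death, stood at 27.4 (25.7 to 29.2), although exons of other genes overlapped 12.2% of its exonic bases. Its fellow effector Bak1 was 1.83 times as high per kilobase of all exons (1.7 to 1.98), 1.29 times with the longest transcripts as lengths and 2.8 times in counts. For Bak1, 25.5% of exonic bases were also annotated to another gene.

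The other BH3-only gene of the list, Bbc3, was lower. Bbc3, which encodes PUMA, stood at 11.6 CPM per kilobase (10.6 to 12.6) from 524 counts. Pmaip1 was 3.12 times as high per kilobase (2.83 to 3.44), and 4.01 times in counts. Phlda3, which encodes a repressor of AKT, stood at 22.8 CPM per kilobase, and Ei24, which encodes a membrane protein of the endoplasmic reticulum, at 20.4. The nuclease gene Aen stood at 7.68 and Apaf1, the scaffold of the apoptosome, at 5.92. Apaf1 and Aen exceeded the median gene in plain CPM, at 53.4 and 44.5, but not per kilobase.

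The receptor gene Eda2r, whose product binds an ectodysplasin isoform, had 97 counts, or 0.774 CPM per kilobase (0.628 to 0.944), the lowest of the 28 genes. Trp53i11 was listed at 0, with an exact interval up to 0.173 CPM, and 3 counts would be 0.141 CPM. Because Atp5a1 and Uqcrc1 were also listed at 0, neither value is taken as a limit on its level. Trp53i11 is described only as listed at 0. In all, 6 of 10 death genes exceeded the median gene per kilobase, against 26.3% of all entries. By construction 50.0% of entries with at least 10 counts do. The median of the 9 death genes with at least 10 counts was 20.4 CPM per kilobase.

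**Figure D3:**
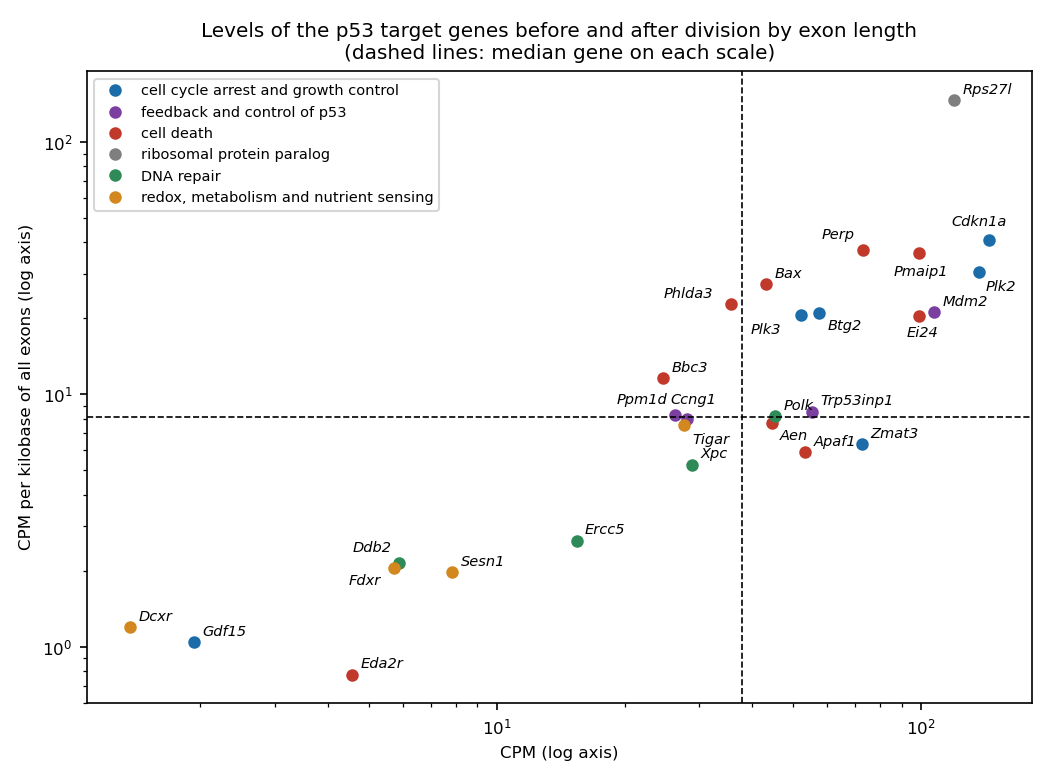
CPM (horizontal, log axis) against CPM per kilobase of all exons (vertical, log axis) for the 28 p53 target genes with at least 10 counts, coloured by role, with dashed lines at the median gene on each scale. Zmat3, Apaf1 and Aen lie right of the vertical line but below the horizontal one, while Bbc3, Phlda3 and Ppm1d lie left of the vertical line but above the horizontal one.

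Rps27l, a paralog of the ribosomal protein gene Rps27 that p53 is known to induce, was the highest gene of the list. Rps27l (chromosome 9, 66946086 to 66949516, plus strand, mm10) had 2546 counts, or 120 CPM (115 to 124), and its exons cover only 816 bases. At 147 CPM per kilobase (141 to 153) it was at percentile 98.0. Rps27 itself had 384 counts, and Rps27l was 8.47 times as high per kilobase (7.61 to 9.46). Of the transcript windows of Rps27, 25.6% were also found in other genes, and 9.38% of those of Rps27l were. How reads with several matches were treated is not given in the sources used here, so this ratio is uncertain.

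DNA repair genes were at or below the median gene. Per kilobase 1 of 4 exceeded it, by a small margin, against 26.3% of all entries. By construction 50.0% of entries with at least 10 counts do. Polk, a polymerase that copies past damaged bases, stood at 8.17 CPM per kilobase (7.66 to 8.7), and its interval contained the median gene. Xpc, whose product finds distorted DNA at the start of nucleotide excision repair, stood at 5.26 (4.86 to 5.7). Ercc5, the endonuclease that cuts on the 3′ side of the lesion, stood at 2.63 (2.35 to 2.93). Ddb2, whose product recognises ultraviolet lesions, had 125 counts and stood at 2.15 (1.79 to 2.56), with 23.8% of its exonic bases overlapped by other genes. Its partner in the complex, Ddb1, which also serves other ubiquitin ligases, was 77.0 times as high per kilobase (64.6 to 92.5) and 180.3 times in counts.

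Genes of redox balance, metabolism and nutrient sensing were all below the median gene. Tigar, a phosphatase that steers sugar away from glycolysis, was the highest of these 4 at 7.54 CPM per kilobase (6.95 to 8.18), and its interval contained the median gene. Fdxr, the mitochondrial ferredoxin reductase, stood at 2.04 (1.7 to 2.44), and Sesn1, a sestrin that restrains mTORC1, at 1.97 (1.68 to 2.29). Sesn2, the paralog that also answers to amino acid shortage through ATF4, was 28.5 times as high per kilobase as Sesn1 (24.4 to 33.5). The reductase gene Dcxr had 29 counts and stood at 1.19 (0.798 to 1.71). The median of the 4 was 2.01 CPM per kilobase, and 0 of the 4 exceeded the median gene, against 26.3% of all entries. By construction 50.0% of entries with at least 10 counts do. With only 4 genes, this describes these genes and no trait of the group.

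**Figure D4:**
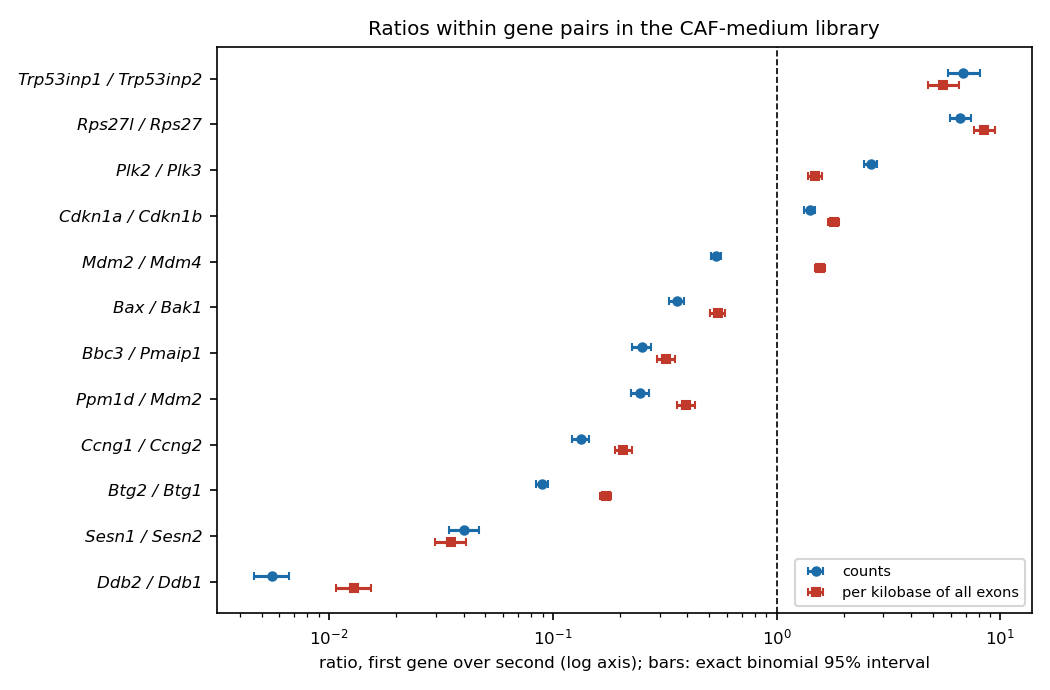
Ratios of the first gene to the second in 12 pairs (log axis), in counts (circles) and per kilobase of all exons (squares), with exact binomial 95% intervals and a dashed line at 1. The Mdm2 and Mdm4 pair is the 1 whose order turns, from 0.536 to 1.56, and Ddb2 lies furthest below its partner.

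Among the regulators of p53, Cdkn2a had the highest level per kilobase. Cdkn2a, whose locus encodes both the MDM2 inhibitor ARF and the kinase inhibitor p16, had 4954 counts, or 199 CPM per kilobase (193 to 204), at percentile 98.7. A count per gene does not separate ARF from p16. RNA levels carry no information on p53 protein.

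The other regulators of p53 lay on both sides of the median gene. Of 29 regulators with an entry, 27 had at least 10 counts, against 52.6% of all entries. Per kilobase, 16 exceeded the median gene, against 26.3% of all entries and 50.0% by construction of those with at least 10 counts, and the median of the 27 was 11.4. The coactivator gene Ep300 stood at 28.4 CPM per kilobase and Pml, whose product gathers p53 and its partners in nuclear bodies, at 29.3. Trim28, a corepressor that works with MDM2, reached 83.9, and Usp7, which removes ubiquitin from p53 and MDM2, stood at 22.4. Mdm4 stood at 13.5. With Cdkn2a, these are the 6 highest regulators by CPM, so the named genes do not show the lower part of the list.

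A further list, drawn up as other p53 targets, was also spread widely. It also held partners and paralogs of listed genes, such as Ddb1, Ccng2, Btg1 and Cdkn1b. Whether p53 induces each of its genes was not checked. Of 39, 35 had at least 10 counts, and 22 exceeded the median gene per kilobase, beside the same shares of 52.6%, 26.3% and 50.0%. The median of the 35 was 10.2 CPM per kilobase. The ephrin receptor gene Epha2 stood at 297 CPM per kilobase (294 to 301), Ddb1 at 165 and Btg1 at 121. The lysosomal protease gene Ctsd stood at 72.4, with 34.4% of its exonic bases overlapped by other genes, Sesn2 at 56.2 and Ccng2 at 38.6. Gadd45a, a stress gene of arrest and repair, stood at 61.7 (59.2 to 64.2), with 19.1% of its exonic bases overlapped. The death receptor gene Fas had 29 counts, or 0.661 CPM per kilobase (0.443 to 0.95). As in the main list, high and very low genes occurred side by side. No test of 1 list against another was made.

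**Figure D5:**
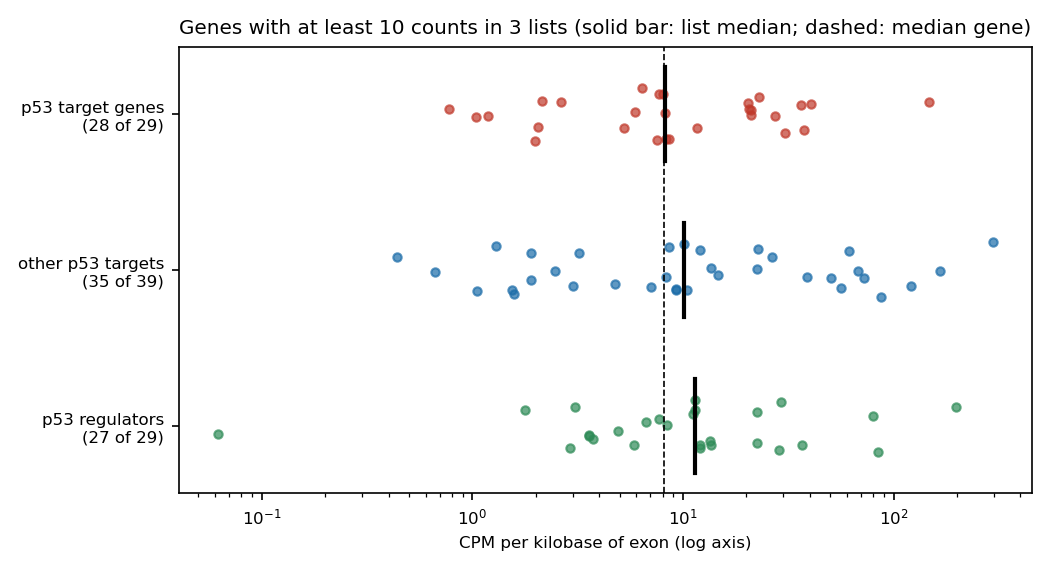
CPM per kilobase of exon (log axis) of genes with at least 10 counts in 3 lists, 28 p53 target genes, 35 other p53 targets and 27 p53 regulators, 1 point per gene, with a solid bar at each list's median and a dashed line at the median gene. The medians are 8.23, 10.2 and 11.4, and the 3 lists overlap over most of their range.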

How the data were processed

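The authors deposited counts as whole numbers, 1 per gene symbol and without scaling. Cells were grown in DMEM with 10% serum and 100 U/ml penicillin, and libraries were made from 2 ug of RNA, per the labels' protocols. HISAT2 2.1.0, StringTie and build mm10 are named per the submitters' processing notes, with no role given. The counting tool, its strand setting, its treatment of reads with several matches and the annotation used were not given in the sources used here. Of the table's value columns, 1 had a name that matched neither library and was not used, so the planned comparison of media was not made.

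Each count was scaled to the total of 21269197 and divided by all annotated exon bases (GENCODE M21, GRCm38, 99.6% of symbols matched). Intervals are exact Poisson for levels and exact binomial for ratios, and both were tested on simulated counts. Those counts were drawn with Poisson error, so the test covers only the error that the intervals assume. Counts from 10 to 99 were multiples of 3 in 36.0% of 1789 entries, against 33.3% of whole numbers. This small excess was not tested, and whether the values are plain read numbers is not known. Intervals may be too narrow if they are not, or where reads are copies of 1 molecule. Transcript windows were 64 bases every 16 bases, searched exactly in other genes.

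Members, lists and pairs were chosen with earlier results of these data known. Named were all members with an entry, the 6 highest by CPM of each further list, Mdm4, Cdkn2a, Sesn2, Gadd45a and Fas at any value and the partners in pairs. Marker genes, Atp5a1 and Uqcrc1 were named after their values were seen. A further gene that the rule named, with its pairs, is not reported here. Computation used matplotlib 3.10.9, pandas 2.3.3, scipy 1.17.1 and numpy 2.4.6 in Python 3.11.15.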

Additional observations from a re-analysis of the deposited data

How the results depend on the processing

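In plain CPM, 15 p53 target genes exceeded the median gene, and 28 did with no count minimum, because the median then falls to that of all entries. Per kilobase of all exons the numbers were also 15 and 28. Under the other alternatives both counts lay between 12 and 15. The alternatives to the count per kilobase, and the longest transcript as length, were chosen after seeing the data. The summed level of 1418 CPM became 1638 with the 100 highest entries left out of the total, which multiplies every CPM by 1.16. The pair Mdm2 over Mdm4 turned from 0.536 in counts to 1.56 per kilobase of all exons and 1.21 per kilobase of the longest transcript. Genes with a paired p53 decamer numbered 0 with no mismatch and no gap, 1 with a gap of up to 13 bases, 3 with 1 mismatch, and 5 with both, the last chosen after seeing the data. The comparison of media and its scalings were not run. No paired analysis was possible because 1 library could be used. Under 100 counts, as for Eda2r, Gdf15 and Dcxr, the interval spans at least 1.5-fold.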
